A study of Rattus norvegicus with 6 samples.

Results

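Of the 22250 genes in the count table, 7 were described, grouped as inducible feedback regulators of stress signalling: Dusp1, Btg2, Socs3, Nfkbia, Gadd45b, Klf4 and Myc. They were taken by their Ensembl gene IDs, which were supplied together with the symbols, and all 7 were present and passed the filter on low counts. RNA was measured in injured achilles tendon of Sprague–Dawley rats, in 3 libraries of the tendon injury model group and 3 libraries of the celecoxib + lactoferrin treatment group, all taken on day 14. In every rat of these groups the tendon had been cut across at its midpoint and sutured. Rats of the treatment group then received daily injections at the site of injury of celecoxib, a selective cyclooxygenase inhibitor, and of lactoferrin, an iron-binding glycoprotein of milk. The injury model rats were labelled as not treated, and the labels gave no vehicle injection. Tendon with neither injury nor drug, and tendon given celecoxib alone, were not analysed here, so neither the effect of injury nor the share of each agent in a difference can be read from these values. The labels enter the time of 14 days as an age, whereas in the methods of the study it is the day after surgery.

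Cells that meet stress, cytokines or growth factors switch on MAP kinases, the NF-kappaB transcription factors and the JAK-STAT pathway within minutes. The same signals induce short-lived mRNAs whose proteins turn these pathways off again or halt growth, and these feedback genes are typically transcribed within the same wave as the immediate early genes. Dusp1 encodes a phosphatase that inactivates MAP kinases, above all the stress-activated ones. Nfkbia encodes the inhibitor that holds NF-kappaB in the cytoplasm, and Socs3 encodes an inhibitor of JAK kinases at cytokine receptors. Btg2 encodes an antiproliferative protein that promotes mRNA deadenylation, and Gadd45b a small stress sensor linked to growth arrest and MAP kinase signalling. Klf4 and Myc encode transcription factors. Klf4 is often tied to growth arrest and Myc to growth and ribosome production, so Myc falls outside the description of feedback genes above.

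The windows around the gene start (250 bases before it to 50 from it on) were read for Dusp1 and Btg2, the genes that differed most between the groups, and for Nfkbia as a gene that differed little. The sequences are from RefSeq on build GRCr8, which is later than the build of the counts, and 6 of the 7 genes had an entry in that table. Each is printed from 5′ to 3′ on the strand of the gene. Capitals mark the cAMP response element TGACGTCA, its shorter core TGACG, the TATA box TATAAA and the NF-kappaB consensus, each on either strand. Every TGACGTCA holds the shorter core on both strands. The Dusp1 window is chr10:17184603-17184902 on the plus strand, that of Btg2 is chr13:48087641-48087940 on the minus strand and that of Nfkbia is chr6:78597023-78597322 on the minus strand.
Dusp1: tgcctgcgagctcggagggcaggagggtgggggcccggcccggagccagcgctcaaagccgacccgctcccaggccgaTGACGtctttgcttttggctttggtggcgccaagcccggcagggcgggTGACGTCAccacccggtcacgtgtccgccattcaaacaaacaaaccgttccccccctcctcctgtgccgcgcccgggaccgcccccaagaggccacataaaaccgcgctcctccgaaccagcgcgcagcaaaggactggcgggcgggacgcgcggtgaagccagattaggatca
Btg2: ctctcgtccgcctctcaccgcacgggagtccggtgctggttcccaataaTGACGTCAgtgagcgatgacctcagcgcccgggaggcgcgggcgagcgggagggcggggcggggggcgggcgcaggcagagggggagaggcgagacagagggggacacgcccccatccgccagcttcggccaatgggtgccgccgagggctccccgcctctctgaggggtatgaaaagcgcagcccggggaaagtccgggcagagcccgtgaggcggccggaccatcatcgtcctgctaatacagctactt
Nfkbia: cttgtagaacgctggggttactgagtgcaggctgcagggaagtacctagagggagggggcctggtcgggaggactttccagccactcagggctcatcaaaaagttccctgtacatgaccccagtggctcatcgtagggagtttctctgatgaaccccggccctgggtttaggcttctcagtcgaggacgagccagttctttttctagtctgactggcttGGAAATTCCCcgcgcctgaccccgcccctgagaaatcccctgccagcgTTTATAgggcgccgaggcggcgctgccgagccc
The full element TGACGTCA was in 2 of the 6 windows, those of Dusp1 and Btg2, and in 1.83% of the 33469 windows of the same length in the table. It began 124 bases before the start of Dusp1 and 201 bases before that of Btg2. G and C made up 68.0% of the Dusp1 window, 69.7% of the Btg2 window and 59.7% of the Nfkbia window. The median over all windows was 51.7%, and the shares over all windows were not matched for this. The shorter core TGACG was in 3 of the 6, with Gadd45b as the third, and in 21.2% of all windows. TATAAA was in 2 of the 6, those of Nfkbia and Klf4, and in 14.2% of all windows. In both genes it lay only on the opposite strand, in Nfkbia at bases 18 to 23 counted from the start on. The NF-kappaB consensus was in the windows of Nfkbia, as GGAAATTCCC, and of Socs3, as GGGGTGCCCC, and in 7.51% of all windows. Neither the AP-1 motif TGANTCA, in 7.33% of all windows, nor the CArG box, in 1.64%, was in any of the 6. Further motifs were searched as well. The GC box GGGCGG was in 4 of the 6 and in 33.1% of all windows. The E-box CACGTG was in 2 of the 6, those of Dusp1 and Gadd45b, and in 6.42% of all windows. The STAT motif TTCNNNGAA was in 1 of the 6, that of Klf4, and in 8.87% of all windows. In the gene table of the same build, the starts used for Dusp1 and Btg2 lay at the outer edge of the gene. Those of Nfkbia, Gadd45b, Klf4 and Socs3 lay 235, 273, 590 and 1207 bases inside it, so other start sites of these genes are not covered. The windows of Gadd45b, Klf4 and Socs3, with the NF-kappaB match of Socs3, therefore lie wholly inside the gene. The windows with and without TGACGTCA differ in this too, so they are not compared like for like. These matches describe the letters of the windows, and binding was not measured.

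The libraries held between 34546567 and 47181784 counts, and every member had at least 495 counts in each, so that the counting error of a single value was at most 4.49%. Levels are given as CPM, the share of a library's counts that fall on a gene scaled to a fixed library total, after TMM scaling, which corrects for library size and composition. Over all 15122 genes tested, Pearson's r of log2 CPM between libraries, taken across genes, lay between 0.896 and 0.922 within the treatment group, between 0.938 and 0.949 within the injury model group, and between 0.887 and 0.963 across the groups. The labelled tissue was not checked against tendon, muscle or blood cell markers, because the other gene IDs were not paired with symbols here. In tissue RNA, fewer cells that express a gene and less RNA per cell cannot be told apart.

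Compared to the tendon injury model group, Dusp1 and Btg2 were lower in the celecoxib + lactoferrin treatment group, and the values of the other 5 genes overlapped between the groups. At the threshold that the study used, an unadjusted p-value under 0.05, edgeR called 2 of the 7 members, where it called 2.61% of all genes tested. Both were lower in treated rats, a direction called for 1.2% of all genes. The members were chosen with earlier results of these data known, so their shares here and below are not independent evidence about such genes. After Benjamini-Hochberg adjustment over all genes tested, edgeR called 0 of the 7, and 0.00661% of all genes, which is 1 gene. DESeq2 called the same 2 members at an unadjusted p-value under 0.05, where it called 3.21% of 17992 genes. After adjustment DESeq2 still called both, where it called 0.145% of genes. The median log2 fold change of the 7 members (treated minus injury model) was -0.38, and that of all genes tested was 0.01. Of the members 4 had a log2 fold change below 0, or 57.1%, beside 49% of all genes.

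**Figure D1:**
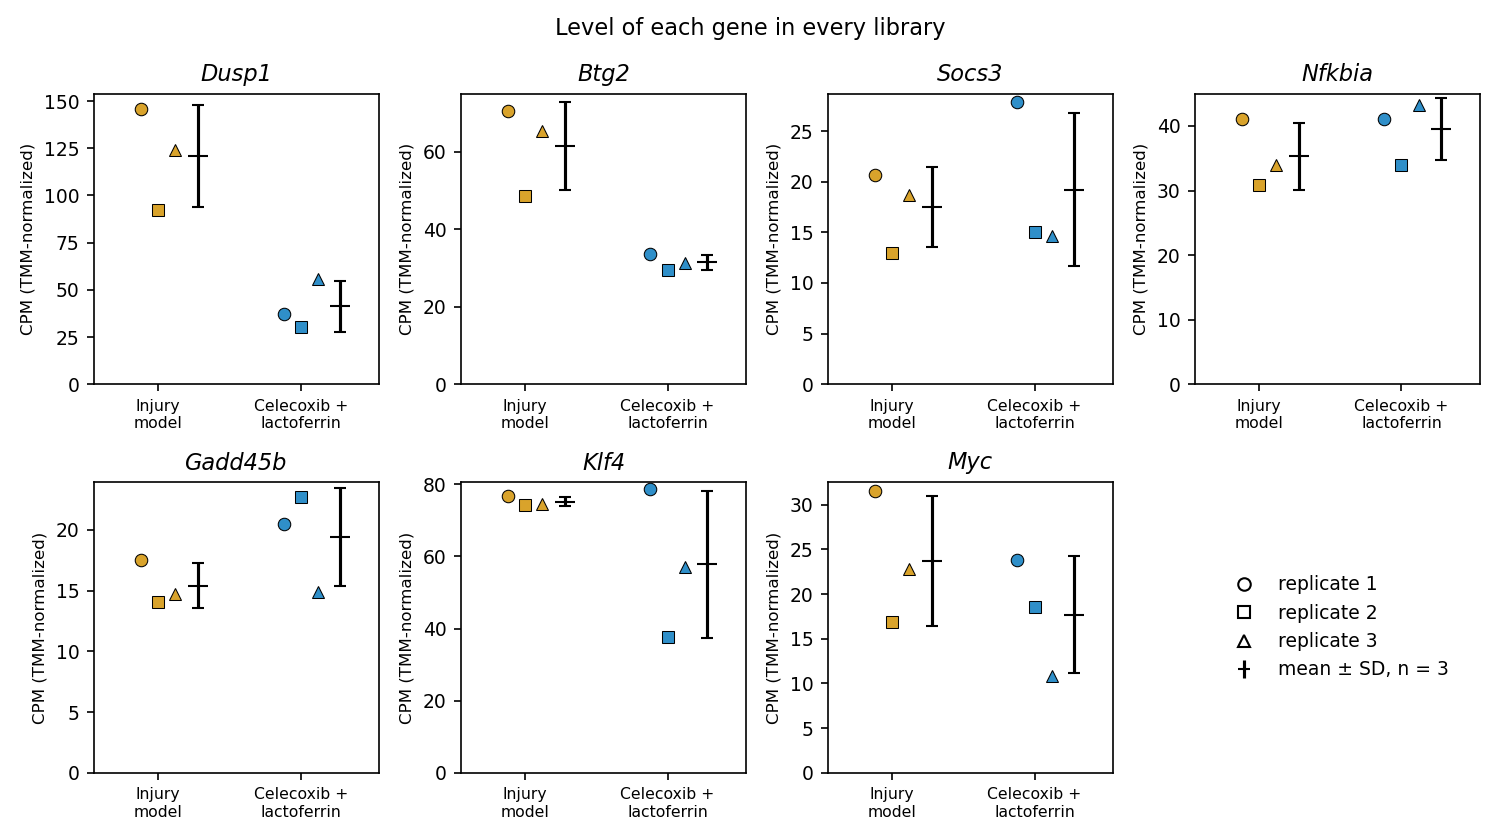
TMM-normalized CPM of each gene (vertical axis, starting at 0) in the 3 libraries of each group, with the mean ± SD (n = 3) beside the points. The groups do not overlap for Dusp1 and Btg2 and overlap for the other 5 genes.

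Dusp1 (ENSRNOG00000003977), the MAP kinase phosphatase, had 6247, 4434 and 4173 counts in injury model replicates 1, 2 and 3, and 1282, 1041 and 2823 counts in celecoxib + lactoferrin replicates 1, 2 and 3. Its levels were 146, 92.3 and 124 CPM in the injury model group and 37.4, 30.2 and 56.0 CPM in the treatment group. Every treated library lay below every injury model library, and the lowest injury model value was 1.65 times the highest treated value. The means were 121 ± 27.0 and 41.2 ± 13.3 CPM (SD, n = 3 each), which is 65.9% lower in treated rats. The log2 fold change was -1.55 with a standard error of 0.27 and a 95% interval from -2.19 to -0.91 (edgeR, unadjusted p = 0.00053, adjusted p = 0.57). By its p-value Dusp1 was number 14 of the 15122 genes. With DESeq2 the log2 fold change was -1.56 and the adjusted p was 0.00011.

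Btg2 (ENSRNOG00000003300), the antiproliferative gene, had 3021, 2340 and 2202 counts in injury model replicates 1, 2 and 3, and 1150, 1023 and 1577 counts in treated replicates 1, 2 and 3. These correspond to 70.6, 48.7 and 65.3 CPM in the injury model group and 33.6, 29.6 and 31.3 CPM in the treatment group. The groups did not overlap here either, with the lowest injury model value 1.45 times the highest treated value. The treated libraries lay close together, with a coefficient of variation of 6.28%, whereas that of the injury model libraries was 18.6%. The means were 61.5 ± 11.4 and 31.5 ± 1.98 CPM (SD, n = 3 each), 48.8% lower in treated rats. The log2 fold change was -0.97 with a standard error of 0.18 and a 95% interval from -1.39 to -0.54 (edgeR, unadjusted p = 0.00081, adjusted p = 0.76). Btg2 was number 16 of the 15122 genes by p-value. With DESeq2 the log2 fold change was also -0.97 and the adjusted p was 0.0049. Groups that did not overlap, with treated rats lower, were thus found in 2 of the 7 members, beside 3.69% of all genes tested. An exact permutation test of the mean log2 CPM gave a two-sided p of 0.1 for Dusp1 and for Btg2, the smallest that 3 libraries against 3 allow. Groups without overlap always give this value.

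**Figure D2:**
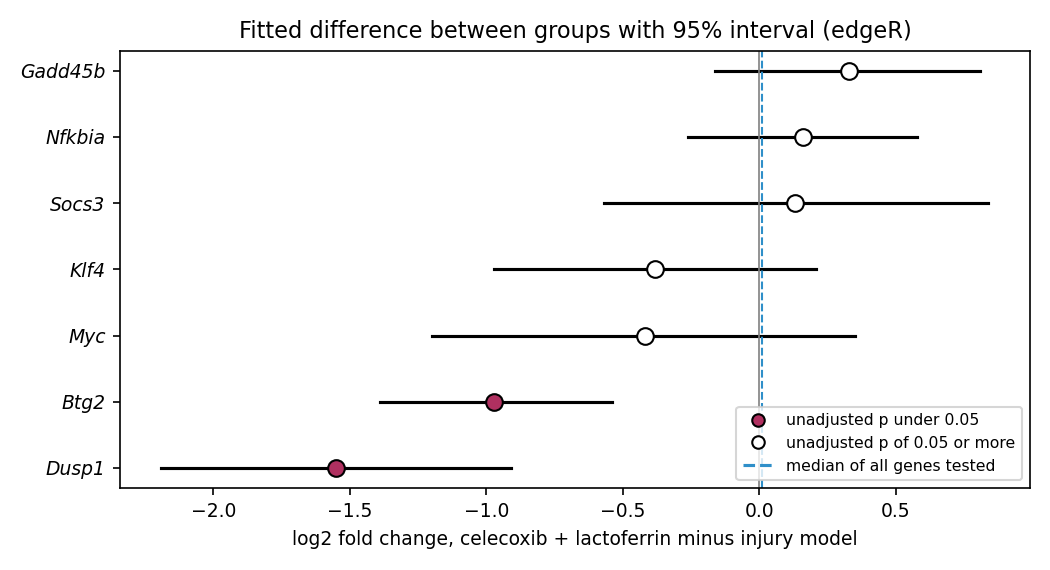
Log2 fold change of each gene (horizontal axis, treated minus injury model) from edgeR, with lines for the 95% interval. The intervals of Dusp1 (-2.19 to -0.91) and Btg2 (-1.39 to -0.54) lie below 0, and the other 5 hold 0.

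Nfkbia (ENSRNOG00000007390), the NF-kappaB inhibitor, had 41.1, 30.9 and 33.9 CPM in the injury model group and 41.1, 34.0 and 43.3 CPM in the treatment group. The ranges overlapped over most of their width. Its means were 35.3 ± 5.24 and 39.5 ± 4.82 CPM (SD, n = 3 each), and its log2 fold change was 0.16, with a 95% interval from -0.26 to 0.58 (edgeR, unadjusted p = 0.4). Its log2 fold change was 0.29 without injury model replicate 1, 0.07 without injury model replicate 2 and 0.09 without treated replicate 3. With all libraries, a change in Nfkbia as large as the fitted one of Btg2, in either direction, lies outside that interval.

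Socs3 (ENSRNOG00000002946), the cytokine receptor inhibitor, had 20.7, 13.0 and 18.7 CPM in the injury model group. In the treatment group it had 27.9, 15.0 and 14.6 CPM, so that replicate 1 of the treatment group held the highest value of all 6 libraries and the other two lay within the injury model range. The means were 17.5 ± 3.98 and 19.2 ± 7.54 CPM (SD, n = 3 each). The log2 fold change was 0.13, with a 95% interval from -0.57 to 0.84 (edgeR, unadjusted p = 0.67). The value turned to -0.24 without treated replicate 1 and to -0.04 without injury model replicate 2, so its sign rested on single libraries.

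Gadd45b (ENSRNOG00000019822), the growth arrest and stress sensor gene, had 17.5, 14.1 and 14.7 CPM in the injury model group and 20.5, 22.7 and 14.9 CPM in the treatment group. Treated replicates 1 and 2 lay above all injury model libraries, and treated replicate 3 lay among them. The means were 15.4 ± 1.84 and 19.4 ± 4.05 CPM (SD, n = 3 each). The log2 fold change was 0.33, the highest of the 7, with a 95% interval from -0.16 to 0.81 (edgeR, unadjusted p = 0.16). Without treated replicate 3 it was 0.49 (edgeR, unadjusted p = 0.0499, adjusted p = 0.82), and without treated replicate 2 it was 0.19 (edgeR, unadjusted p = 0.376, adjusted p = 1).

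Klf4 (ENSRNOG00000016299), the zinc finger transcription factor, had 76.7, 74.4 and 74.6 CPM in the injury model group. These 3 values differed by a coefficient of variation of 1.71%, about the counting error of these libraries, which was between 1.67% and 1.99%. In the treatment group Klf4 had 78.6, 37.7 and 57.0 CPM, a coefficient of variation of 35.4%. Treated replicate 1 was therefore at the injury model level and the other two treated libraries were below it. The means were 75.2 ± 1.28 and 57.8 ± 20.4 CPM (SD, n = 3 each), and the log2 fold change was -0.38, with a 95% interval from -0.97 to 0.21 (edgeR, unadjusted p = 0.17). It was -0.67 without treated replicate 1 (edgeR, unadjusted p = 0.0212, adjusted p = 1) and -0.16 without treated replicate 2 (edgeR, unadjusted p = 0.37).

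Myc (ENSRNOG00000004500), the growth-promoting transcription factor, had 31.5, 16.9 and 22.8 CPM in the injury model group and 23.8, 18.5 and 10.8 CPM in the treatment group. Injury model replicate 1 was the highest and treated replicate 3 the lowest, and the other 4 libraries were mixed. The means were 23.7 ± 7.31 and 17.7 ± 6.54 CPM (SD, n = 3 each). The log2 fold change was -0.42, with a 95% interval from -1.2 to 0.35 (edgeR, unadjusted p = 0.24), and it was -0.17 without injury model replicate 1 and also without treated replicate 3. Leaving out treated replicate 1 moved it to -0.70 (edgeR, unadjusted p = 0.0858). All 5 genes from Nfkbia to Myc had an adjusted p of 1 in edgeR with all 6 libraries.

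Since the genes were counted in the same libraries, the ratio of the raw counts of 2 genes within a library needs no scaling, and it can be compared between libraries although its own size depends on the lengths of both genes. The genes for these ratios were chosen after the values had been seen. The count ratio of Dusp1 to Nfkbia, the MAP kinase phosphatase against the NF-kappaB inhibitor, was 3.56, 2.99 and 3.65 in the injury model libraries and 0.911, 0.886 and 1.29 in the treated libraries. The ranges were apart by a factor of 2.31, and the mean log2 ratio differed by -1.74, beside a pooled SD of 0.24. The ratio of Btg2 to Nfkbia was 1.72, 1.58 and 1.93 in the injury model libraries and 0.817, 0.871 and 0.723 in the treated libraries, with a difference in mean log2 ratio of -1.11 and a pooled SD of 0.14. Dusp1 and Btg2 were thus lower relative to Nfkbia in each of the 3 treated libraries than in any injury model library.

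The count ratio of Dusp1 to Btg2 was 2.07, 1.89 and 1.90 in the injury model group and 1.11, 1.02 and 1.79 in the treatment group. Treated replicate 3 nearly reached the injury model range, with a factor of 1.06 between them, while the other two treated libraries lay well below it. The ratios of Gadd45b to Myc were 0.556, 0.830 and 0.645 in the injury model group and 0.861, 1.23 and 1.38 in the treatment group, which also did not overlap. For each of these 4 ratios the two-sided exact permutation p was 0.1, the smallest possible. Groups without overlap always give this value, so the test adds nothing to the ranges of these chosen ratios. The groups did not overlap in 10 of all 21 pairs of members, among them Gadd45b to Klf4. They did not overlap in 7 of the 10 pairs of Dusp1 or Btg2 with one of the other 5. These pairs reuse the same values of Dusp1 and Btg2, whose own groups did not overlap, so they are not separate results. The share over all pairs of genes tested was not computed. Against the other members, the separation of Dusp1 and Btg2 was thus not uniform. The ratio of Dusp1 to Myc was 4.64, 5.45 and 5.43 in the injury model group and 1.57, 1.63 and 5.20 in the treatment group, so that treated replicate 3 lay within the injury model range. The ratio of Btg2 to Myc was 2.24, 2.87 and 2.87 in the injury model group and 1.41, 1.60 and 2.90 in the treatment group, and that of Btg2 to Klf4 was 0.921, 0.655 and 0.875 beside 0.427, 0.786 and 0.549. These 3 ratios overlapped between the groups (two-sided exact permutation p of 0.2 for Dusp1 to Myc, 0.4 for Btg2 to Myc and 0.2 for Btg2 to Klf4). Nfkbia, as the denominator, gave the widest gap of the ratios for Dusp1 and for Btg2.

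**Figure D3:**
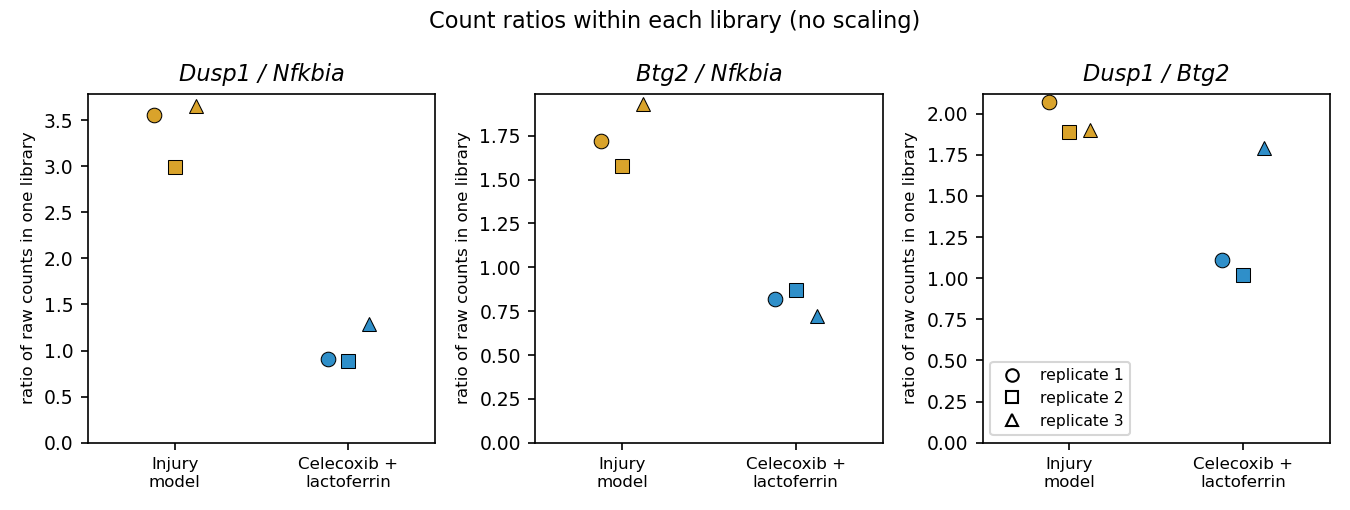
Ratio of raw counts of 2 genes within each library (vertical axis, starting at 0) for Dusp1 over Nfkbia, Btg2 over Nfkbia and Dusp1 over Btg2, with a marker for each replicate. The groups are apart by factors of 2.31 and 1.81 for the ratios to Nfkbia and by 1.06 for Dusp1 over Btg2.

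The 7 genes did not move as a block across the libraries. Injury model replicate 1 was above the gene's own mean over the 6 libraries in 7 of 7 genes and held the highest value of Dusp1, Btg2 and Myc. Treated replicates 2 and 3 were each above the gene's mean in 1 of 7 genes, Gadd45b in replicate 2 and Nfkbia in replicate 3. Treated replicate 1 was above it in 5 of 7, all but Dusp1 and Btg2, and held the highest value of Socs3 and Klf4. Injury model replicate 2 held the lowest value of Socs3, Nfkbia and Gadd45b. Libraries within a group therefore differed in which of these genes were high, and Dusp1 and Btg2 were the members whose order followed the groups.

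**Figure D4:**
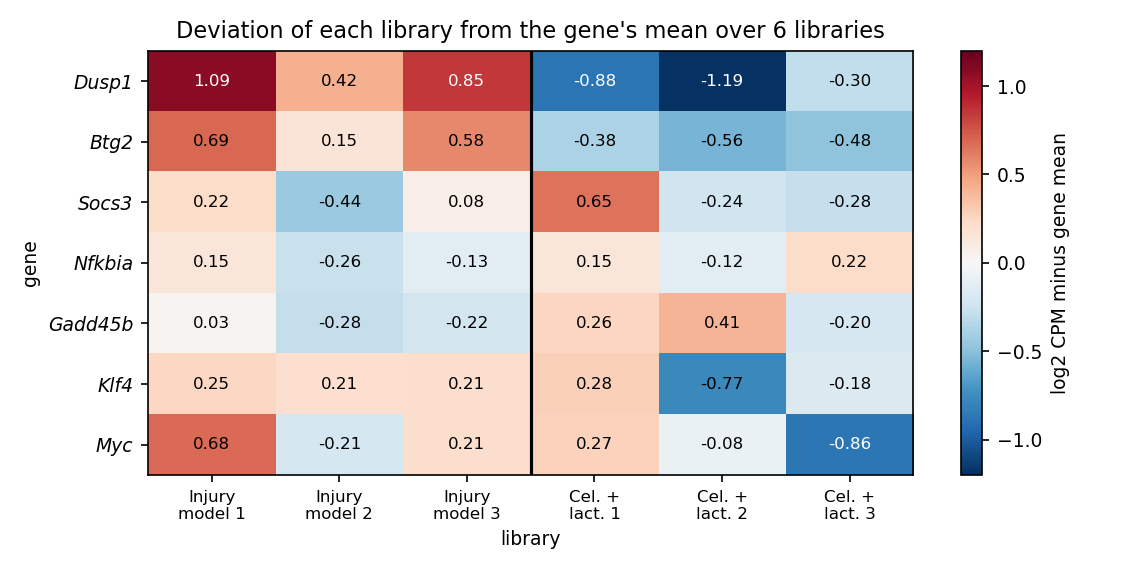
Log2 CPM of each gene in each library minus the gene's mean over the 6 libraries, with red above and blue below the mean. Dusp1 and Btg2 are above their mean in the 3 injury model libraries and below it in the 3 treated ones, and the other rows are mixed.

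Dusp1 and Btg2 had almost the same order of libraries. From the highest to the lowest, both ran from injury model replicate 1 to replicate 3 and replicate 2, and both were lowest in treated replicate 2. They differed in treated replicates 1 and 3, where Dusp1 was higher in replicate 3 and Btg2 in replicate 1. Because both fall into separate clusters by group, with 3 libraries each, no correlation is given for them, and neither group holds the 6 libraries that a correlation would need. The 5 genes whose groups overlap form 10 pairs, and in an exact permutation test over the 6 libraries 0 of them had an adjusted p under 0.05, by Benjamini-Hochberg over all 21 pairs of members. Unadjusted, 0 of the 10 had a p under 0.05 for Pearson's r and 1 had one for Spearman's rho. The pair with the highest r was Socs3 and Myc, with r = 0.66 (exact permutation p = 0.15, adjusted p = 0.62) and rho = 0.89 (exact permutation p = 0.033, adjusted p = 0.35). Without the 2 libraries farthest from the median of Socs3, r was 0.90, and no test was made on the few libraries left. Over the same libraries r of Socs3 went from 0.51 to -0.03 with Nfkbia and from 0.42 to -0.24 with Gadd45b. With Klf4 it went from 0.48 to 0.8, so such values move widely in both directions.

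By the mean of Pearson's r with the 7 members over the 6 libraries, the most similar of the 15115 other genes tested was ENSRNOG00000026306, with a mean r of 0.568, and the next was ENSRNOG00000004791, with 0.564. The level of ENSRNOG00000004791 was 83.1, 53.1 and 64.5 CPM in the injury model group and 69.6, 45.1 and 50.6 CPM in the treatment group, which overlap. In each group it was highest in replicate 1, as were 4 of the 7 members, Btg2, Socs3, Klf4 and Myc. The gene was picked for its likeness to the members over these libraries, so a shared pattern follows from that choice.

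**Figure D5:**
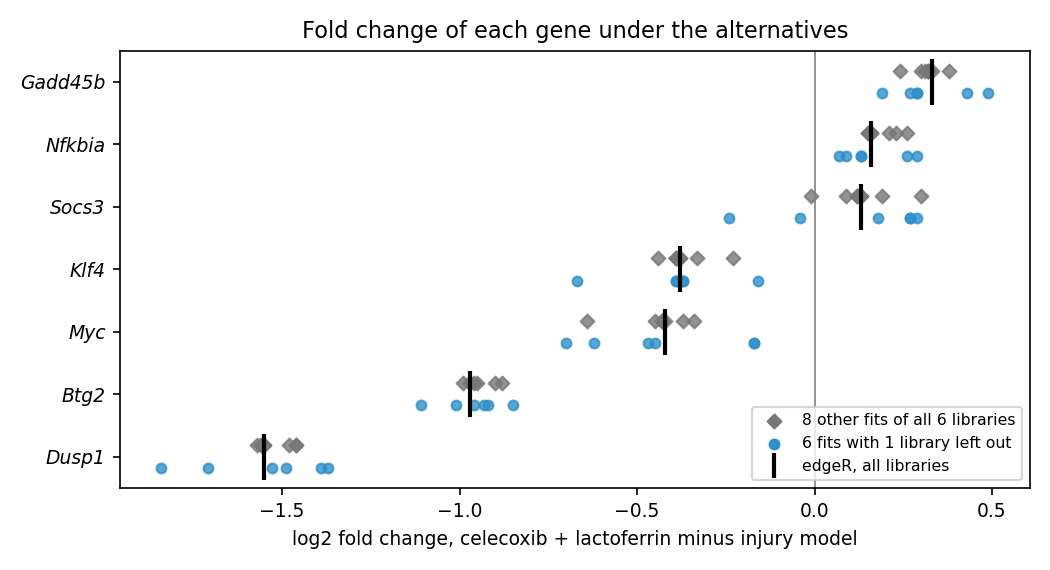
Log2 fold change of each gene (horizontal axis, treated minus injury model) with edgeR and all libraries (black bar), in 8 other fits of all 6 libraries (grey diamonds) and in 6 fits with 1 library left out (blue circles). Dusp1 stays between -1.84 and -1.37 and Btg2 between -1.11 and -0.85, whereas Socs3 lies on both sides of 0.

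Across these 14 alternatives Dusp1 and Btg2 were lower in treated rats in 14 of 14, each time with an unadjusted p-value under 0.05, and their adjusted p was under 0.05 in 1 of 14, DESeq2. Over the same alternatives, between 1.47% and 5.83% of all genes passed that unadjusted threshold. With each library left out in turn, the log2 fold change of Dusp1 was nearest to 0 without treated replicate 2, at -1.37, and farthest without treated replicate 3, at -1.84. That of Btg2 was nearest to 0 without injury model replicate 1, at -0.85, and farthest without injury model replicate 2, at -1.11.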

How the data were processed

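RNA was extracted with TRIzol and sequenced on an Illumina platform, and reads of low quality were removed. The authors aligned the reads with HISAT2 to the rat genome Rnor_6.0 and deposited raw counts for each Ensembl gene ID, which had not been normalized. The submitters' processing notes list a human build, which goes against the rat gene IDs. The counting tool, its strand setting and its treatment of multi-mapping reads are not given in the sources used here, so reads shared with overlapping or antisense genes cannot be told apart. Libraries were grouped by their labels, and no pair was a duplicate (chi-square per degree of freedom at least 80.2). The p-values of the fits set the difference between groups against the spread between libraries within a group, estimated with help from all genes.

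Counts were tested in R 4.3.3 with edgeR 4.0.16 (filterByExpr by group, TMM, robust quasi-likelihood fit, Benjamini-Hochberg adjustment over 15122 genes). Log2 CPM had a prior count of 2, and intervals were at 95%. DESeq2 1.42.0, limma 3.58.1 with voom and quality weights, other scalings and filters, a replicate block, a depth term and the removal of each library were tried as alternatives. The edgeR, DESeq2 and limma-voom tests were also run on simulated data. After adjustment, DESeq2 called more unchanged genes there than edgeR or limma-voom did. It also recovered more of the genes that had been changed, at each size of change.

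The members and lists were chosen with earlier results of these data known. All 7 members were named, with the 2 most similar genes by ID. Pathway lists and cell type markers, set by symbol, were not analysed here, because the gene table paired 0 of the IDs with symbols. Counting errors cover counting only.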

Additional observations from a re-analysis of the deposited data

How the results depend on the processing

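The number of members with an unadjusted p-value under 0.05 was 2 under the 8 alternatives that keep all libraries, and between 2 and 3 with each library left out, where Klf4 was added without celecoxib + lactoferrin replicate 1 and Gadd45b without replicate 3 of that group. The number with an adjusted p under 0.05 was 0 with edgeR and 2 with DESeq2, and 0 under the other 13 alternatives. The cause was not tested. The median log2 fold change of the members, -0.38, lay between -0.67 and -0.16 with each library left out, the lowest being without treated replicate 1. It was -0.16 without treated replicate 2, and -0.17 without treated replicate 3 or without injury model replicate 1. Socs3 (0.13) reversed to -0.01 with a term for library depth, to -0.04 without injury model replicate 2 and to -0.24 without treated replicate 1. With each library left out it lay between -0.24 and 0.29. The other 6 genes kept their direction under all 14 alternatives.

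The groups share replicate numbers, but same-numbered libraries did not deviate together (r across genes from -0.27 to 0.06, and from -0.31 to 0.30 for other pairs). With 3 libraries per group, these values cannot show whether the numbers pair the rats. With a replicate block, the count at an unadjusted p-value under 0.05 was 2, Dusp1 had a log2 fold change of -1.57 and Btg2 one of -0.95, and the median was -0.44. The count of all genes went from 395 to 326.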
